A study of Mus musculus with 21 samples.

Results

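The 9 cassette exons described here belong to Mfge8, Ciz1, Agfg2, Rbm26, Tomm5, Rps6kb1, Ext2, Tubd1 and Wdr35. They were chosen because the share of transcripts that include each of them was higher in Rbm10 knockout (KO) than in wild-type (WT) cells in 2 mouse cell types. The choice used the RNA-seq values, so those are given as a description with no test, while the crosslinking data were not used for the choice. The 9 genes are among 3421 genes with a measured cassette exon. A cassette exon is an internal exon whose flanking exons are joined directly in another annotated transcript. Its percent spliced in (PSI) is the TPM of the including transcripts as a percentage of the TPM of including and skipping transcripts together. TPM is a transcript's length-scaled share of its library. An event counted as measured when these transcripts reached at least 1 TPM in each of the 13 RNA-seq libraries, as 6113 of 12152 annotated events did. Where a gene had several such exons, the exon with the largest smaller rise of the 2 cell types was taken.

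RNA-seq of polyadenylated RNA covered md MEPA cells, a mouse line from the mandibular part of the embryonic pharyngeal arch at 11.5 days post coitum, from CD1 females and an Immortomouse male. These cells were grown at 33 °C with 100 U/ml murine interferon. The md KO samples were 4 separate CRISPR/Cas9 clones, KO1 and KO2 with a deletion in exon 3 of Rbm10 and KO3 and KO4 with a deletion in exon 9, against 3 WT samples. For ES cells, 3 samples came from CSI176, a male gene trap line and thus 1 line, and 3 from the E14Tg2a.4 cells it was made in. The labels do not state whether the WT md samples, or those of each ES line, were separate cultures. RBM10 binding was mapped in md MEPA cells by iCLIP, in which UV light (400 mJ/cm2 at 254 nm) joins protein to RNA and the crosslinked base is read out. There were 4 RBM10 libraries, made with an antibody to both RBM10 isoforms, and 4 rabbit IgG control libraries. No iCLIP of ES cells was analysed here.

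RBM10 is an RNA-binding protein of the spliceosome and a regulator of cassette exons. A cassette exon can be skipped when the splice sites of its flanking exons are paired with each other in place of its own. Whether it is kept can change a protein by a stretch of residues, shift the reading frame, or alter the part of the RNA before the start codon.

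The RNA-seq depth is unknown, since the files hold TPM. The 4 RBM10 libraries held 774816 to 2847066 crosslinks and the 4 IgG libraries 103017 to 2214515. Rbm10 itself had 4.27, 3.63 and 4.25 TPM in the ES KO samples and 32.5, 33.5 and 32.2 in their WT. In md cells it had 7.20 and 3.49 TPM in the exon 9 clones. The exon 3 clones had 23.2 and 19.7 TPM, beside 21.4, 23.2 and 23.7 in WT, so its level does not check the labels of those clones. The summed TPM of 7 ES cell markers was 4201 to 5214 in ES libraries, with 7 of 7 at 1 TPM or more, and 5.68 to 17.6 in md libraries. That of 8 arch mesenchyme markers was 682 to 2390 in md libraries, with 4 to 6 of 8 at 1 TPM or more, and 2.65 to 7.59 in ES libraries. Most of the md sum was Col1a1 (173.6 to 799.3 TPM) and Col1a2 (378.9 to 1848 TPM). Hand2 was 0 in every md library, Dlx5 was at most 0.231 TPM, and Dlx6 was under 1 TPM in all but KO4 (7.08 TPM). The sum therefore parts md from ES cells but does not check the arch origin.

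The 7 exons that lie wholly in annotated coding sequence are printed because they are the sequence gained by the RNA when the exon is kept. Each is given 5′ to 3′ in mm9 with 20 nt of intron on each side, the exon in capitals and the intron in lower case.
Mfge8, chr7:86288144-86288294, minus strand: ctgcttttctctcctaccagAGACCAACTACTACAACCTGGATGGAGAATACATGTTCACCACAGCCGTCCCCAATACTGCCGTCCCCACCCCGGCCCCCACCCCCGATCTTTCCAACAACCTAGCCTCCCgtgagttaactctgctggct
Ciz1, chr2:32221303-32221414, plus strand: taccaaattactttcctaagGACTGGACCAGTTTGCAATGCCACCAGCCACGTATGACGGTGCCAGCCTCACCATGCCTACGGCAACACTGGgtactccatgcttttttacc
Agfg2, chr5:138101370-138101442, minus strand: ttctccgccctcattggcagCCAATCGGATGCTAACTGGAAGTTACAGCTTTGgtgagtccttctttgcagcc
Rbm26, chr14:105538288-105538399, minus strand: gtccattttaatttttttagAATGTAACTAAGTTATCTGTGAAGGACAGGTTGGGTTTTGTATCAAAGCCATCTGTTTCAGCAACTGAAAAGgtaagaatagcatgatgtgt
Tomm5, chr4:45119691-45119780, minus strand: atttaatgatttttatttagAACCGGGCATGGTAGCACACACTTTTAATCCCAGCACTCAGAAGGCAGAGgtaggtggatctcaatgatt
Tubd1, chr11:86370177-86370309, plus strand: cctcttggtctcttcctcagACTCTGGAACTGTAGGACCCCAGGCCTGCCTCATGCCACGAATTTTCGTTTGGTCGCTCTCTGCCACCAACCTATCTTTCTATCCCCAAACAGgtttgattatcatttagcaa
Wdr35, chr12:9002426-9002498, plus strand: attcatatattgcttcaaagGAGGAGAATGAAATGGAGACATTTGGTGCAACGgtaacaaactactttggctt

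The other exons lie in Rps6kb1, at chr11:86330246-86330489 on the minus strand (244 nt), and in Ext2, at chr2:93660187-93660306 on the minus strand (120 nt). All 9 introns before the exons end in AG. The introns after the exons begin with GT in 8 of 9, and that of Ext2 begins with GC. An AG and GT pair flanked 97.4% of the 5955 distinct measured cassette exons. The length was a multiple of 3 for 7 of 9 exons, all but Tomm5 and Rps6kb1, against 49.4% of the 5955. The median exon length was 72 nt against 102 nt over all measured exons. The last 20 nt of intron before the exon held a median of 70% pyrimidines against 65%, and the median exon GC content was 52% against 50%. The upstream intron had a median of 1390 nt against 1546 nt, and the downstream intron 1194 nt against 1551 nt. With 9 exons chosen on their values these are descriptions.

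PSI was higher in KO in all 9 genes in both cell types, which is what the choice required. In bulk RNA, more cells with a form and more of it per cell cannot be told apart. The difference of group means ranged from 5.90 points (Wdr35) to 26.8 points (Agfg2) in md cells and from 10.8 points (Wdr35) to 69.9 points (Tubd1) in ES cells. The median difference was 19.9 points in md and 25.4 points in ES cells, against 0 over all measured events in each. KO and WT libraries did not overlap in md cells for 8 of 9 exons, all but that of Ext2, and in ES cells for 9 of 9. Over all 6113 events, KO stood above WT without overlap in 4.55% in md cells, in 7.69% in ES cells and in 1.10% in both, which is 67 events. A difference of at least 10 points was seen in 6 of 9 exons in md cells, where 2.42% of all events had one, and in 9 of 9 in ES cells, where 4.32% did. In both it was seen in 6 of 9 exons and in 0.474% of all events. The difference was larger in ES than in md cells in all 9, but the tables of the cell types were made separately and this was not tested. The mean of the exon 9 clones was above that of the exon 3 clones for 7 exons, all but those of Ciz1 and Rps6kb1.

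**Figure D1:**
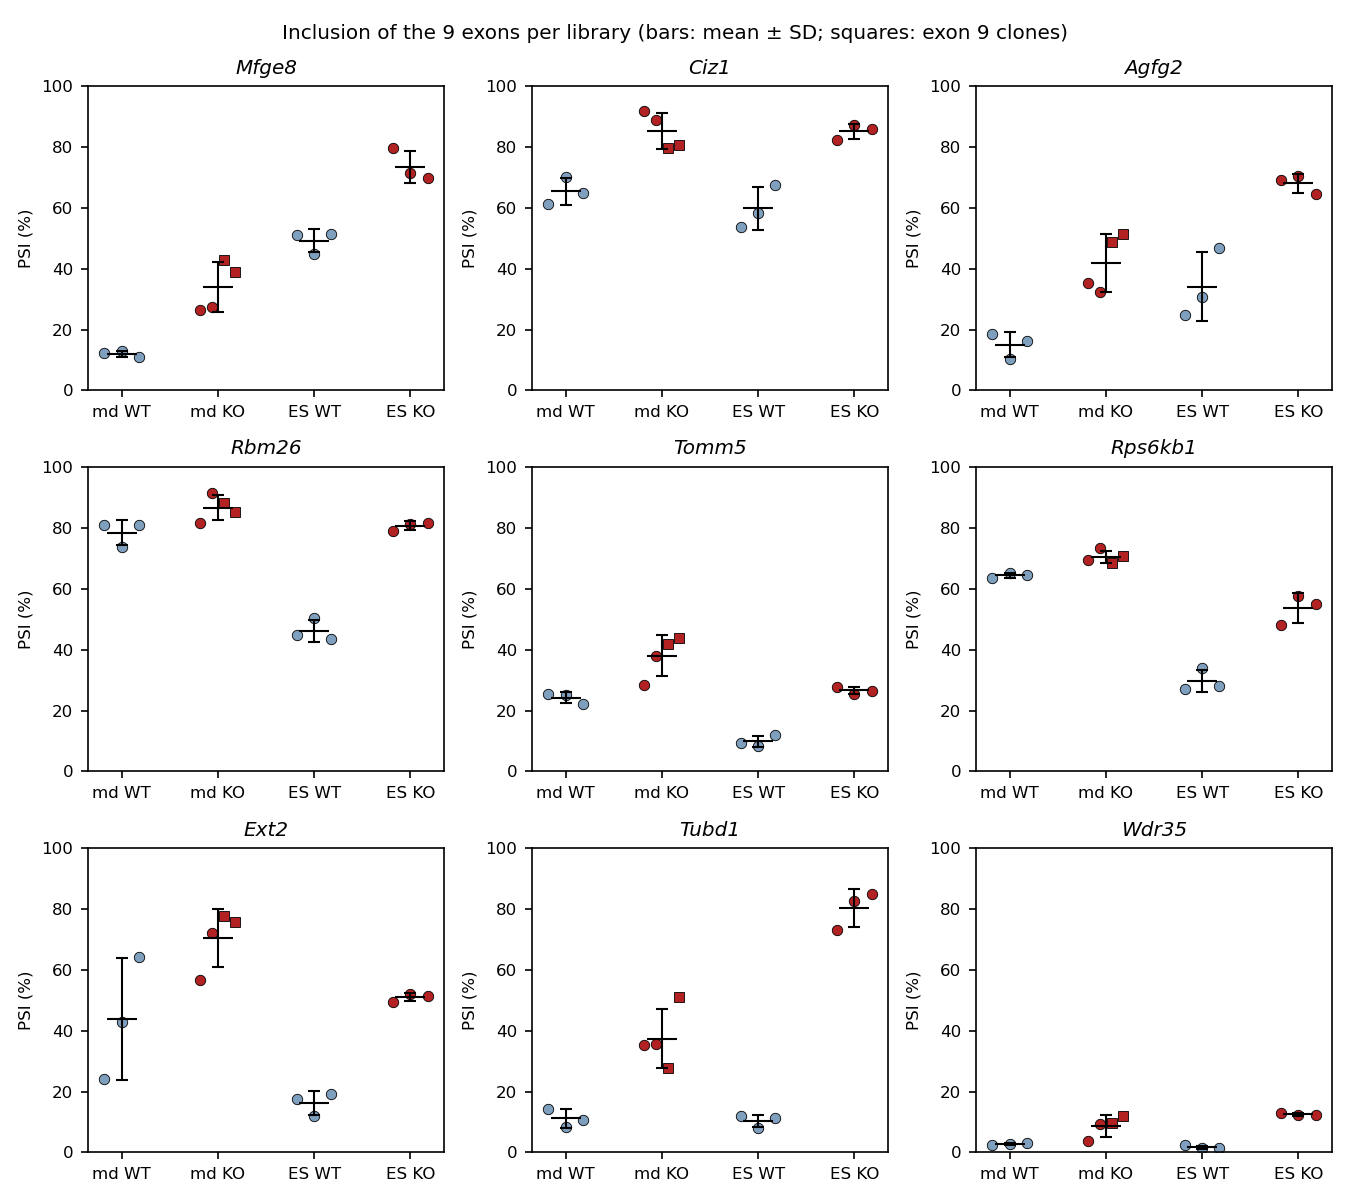
PSI in percent (y axis) of the 9 exons in each library, by group (x axis): points are libraries, squares the exon 9 clones, and bars the mean ± SD (n = 4 for md KO, 3 for the others). The KO points lie above all WT points of their cell type in every panel but md cells of Ext2, where a WT library at 64.2% lies above a KO clone at 56.5%.

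**Figure D2:**
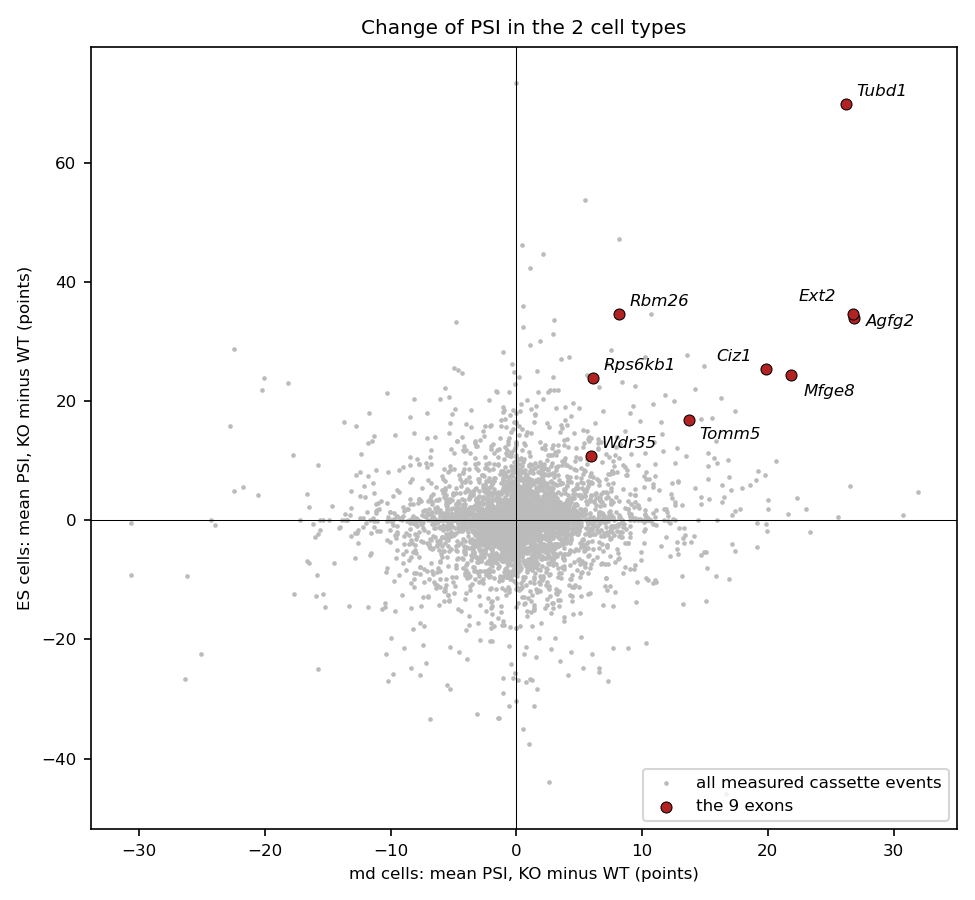
Difference of mean PSI between KO and WT in percentage points, in md cells (x axis) and in ES cells (y axis), for all 6113 measured cassette events (grey) and the 9 exons (red). The 9 exons lie in the upper right, with Tubd1 highest at 69.9 points in ES cells, because they were chosen for that position.

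Mfge8 encodes the secreted milk fat globule protein MFG-E8, which bridges phosphatidylserine on dying cells and integrins on phagocytes. Its exon, chr7:86288164-86288274 on the minus strand (111 nt), is known to encode the proline and threonine-rich stretch of the long form of the protein. PSI was 26.4, 27.5, 42.7 and 39.0% in md KO1 to KO4 and 12.2, 13.02 and 10.9% in md WT. In ES cells it was 79.5, 71.3 and 69.8% in KO and 51.2, 44.8 and 51.5% in WT. The groups did not overlap in either cell type, and the exon 9 clones stood above the exon 3 clones. The means were 33.9 ± 8.22% in md KO against 12.1 ± 1.05% in WT (SD, n = 4 and 3), and 73.5 ± 5.25% in ES KO against 49.2 ± 3.75% (n = 3 each).

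A different transcript of Mfge8 parted without overlap in each cell type. The including transcript, ENSMUST00000032825, had 50.0, 28.7, 26.7 and 26.2 TPM in md KO1 to KO4 and 13.2, 14.6 and 11.9 TPM in WT. The skipping transcript, ENSMUST00000107409, had 139.7, 75.8, 35.8 and 41.0 TPM in KO1 to KO4, and the WT values of 94.5, 97.8 and 97.0 lay between them, so its groups overlapped. In ES cells the including transcript had 27.96, 15.3 and 16.7 TPM in the KO samples beside 22.2, 22.4 and 21.6 in the parental line, and its groups overlapped. The skipping transcript was lower there, at 7.19, 6.15 and 7.21 TPM against 21.1, 27.5 and 20.4 in WT. The reading frame has 463 codons before the stop with the exon and 426 without it.

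Ciz1 encodes a nuclear zinc finger protein with known roles in DNA replication and in keeping Xist RNA at the inactive X chromosome. Its exon, chr2:32221323-32221394 on the plus strand (72 nt), was included in 91.9, 88.7, 79.6 and 80.8% in md KO1 to KO4 and in 61.4, 70.0 and 64.8% in WT. ES KO samples included it in 82.4, 87.2 and 85.9% and ES WT samples in 53.6, 58.3 and 67.5%. No KO library fell within the WT range in either cell type. Unlike Mfge8, the exon 3 clones stood above the exon 9 clones.

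Ciz1 including transcripts in md cells summed to 12.9 to 17.95 TPM in KO and 9.15 to 10.4 TPM in WT, and skipping transcripts to 1.58 to 3.86 TPM in KO and 4.46 to 5.81 TPM in WT. Ciz1 was thus the exon whose 2 pools both parted without overlap in md cells. The chief including transcript there, ENSMUST00000113338, had 12.4, 10.9, 6.83 and 9.88 TPM in KO beside 4.38, 4.54 and 3.96 in WT. In ES cells the including sum overlapped, at 5.38 to 12.5 TPM in KO and 5.55 to 7.22 TPM in WT. The skipping sum did not, at 0.793 to 2.68 TPM in KO and 3.47 to 4.81 TPM in WT. The event covers part of the gene's RNA, with a mean of 27.8 to 39.7% of Ciz1 TPM across the 4 groups. The frame has 845 codons with the exon in ENSMUST00000113338 and 821 in the skipping ENSMUST00000113331.

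Rbm26 encodes an RNA-binding protein with zinc finger and RNA recognition domains. Its exon, chr14:105538308-105538379 on the minus strand (72 nt), was included in 81.5, 91.4, 88.2 and 85.4% in md KO and in 80.8, 73.8 and 80.8% in md WT. The md groups were close, with 81.5% in KO1 next to 80.8% in WT. In ES cells it was included in 79.0, 81.4 and 81.8% in KO and in 44.8, 50.4 and 43.4% in WT. The md difference of 8.14 points stood beside an ES difference of 34.5 points, with a WT mean of 78.5 ± 4.07% in md and 46.2 ± 3.71% in ES cells (SD, n = 3 each).

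Of the including transcripts of Rbm26, ENSMUST00000022715 had 10.5, 9.43 and 11.9 TPM in ES KO and 0.119, 1.01 and 0.329 TPM in WT. The same transcript overlapped in md cells, at 1.68, 2.36, 3.92 and 2.54 TPM in the clones and 3.07, 2.63 and 2.69 TPM in WT. The skipping transcript ENSMUST00000100327 had 5.80, 5.28 and 5.50 TPM in ES KO and 12.0, 11.1 and 13.2 in WT. The md clones had 2.08, 0.879, 1.96 and 1.85 TPM of it beside 2.86, 3.86 and 2.66 TPM in WT. The skipping form was therefore lower without overlap in both cell types. The frame has 1007 codons in ENSMUST00000022715 and 983 in the skipping transcript. Other including transcripts have 1001 and 1009 codons.

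Agfg2 encodes a protein with an ArfGAP domain and phenylalanine-glycine repeats. Its exon, chr5:138101390-138101422 on the minus strand, is only 33 nt long. It was included in 35.3, 32.2, 48.6 and 51.4% in md KO1 to KO4 and in 18.4, 10.3 and 16.4% in WT. PSI in ES cells was 69.0, 70.4 and 64.6% in KO and 24.7, 30.7 and 46.6% in WT. The groups did not overlap, and the exon 9 clones were the highest of the md libraries. Its including transcripts had 5.94 to 7.52 TPM in md KO and 1.42 to 2.37 TPM in WT, and 4.77 to 5.43 TPM in ES KO and 1.29 to 3.52 TPM in WT. The transcript ENSMUST00000100544 carried this, with 4.57 to 6.504 TPM in md KO and 0.0709 to 1.35 TPM in WT, while the other including transcript, ENSMUST00000151839, overlapped in md cells at 0.881 to 1.38 TPM in KO and 0.916 to 1.71 TPM in WT. The frame has 490 codons with the exon and 479 without it.

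Tubd1 encodes delta-tubulin, a tubulin needed for the triplet microtubules of centrioles. Its exon, chr11:86370197-86370289 on the plus strand (93 nt), had the largest ES difference of the 9. It was included in 73.2, 82.7 and 84.9% in ES KO and in 11.9, 8.001 and 11.2% in ES WT. In md cells it was included in 35.2, 35.8, 27.7 and 50.97% in KO1 to KO4 and in 14.4, 8.36 and 10.8% in WT. The WT means were alike, 11.2 ± 3.05% in md and 10.4 ± 2.09% in ES cells (SD, n = 3 each), and the KO means were 37.4 ± 9.76% (n = 4) and 80.2 ± 6.23% (n = 3).

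Tubd1 RNA was low. The including transcript ENSMUST00000108030 had 2.42, 2.88 and 3.14 TPM in ES KO and 0.351, 0.207 and 0.353 in WT. The skipping transcript ENSMUST00000069503 had 0.931, 0.471 and 0.579 TPM in ES KO and 2.49, 2.29 and 2.55 in WT. The including form was the larger one in ES KO. In md KO the skipping transcript stayed the larger in KO1, KO2 and KO3, at 3.17, 3.49 and 3.31 TPM against 2.26, 2.43 and 1.39 TPM of the including one. In KO4 the including transcript had 3.07 TPM and the skipping one 2.27 TPM. The frame has 486 codons with the exon and 455 without it.

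Wdr35 encodes a WD repeat protein of the intraflagellar transport complex that carries cargo in cilia. Its exon, chr12:9002446-9002478 on the plus strand (33 nt), was a minor form in every group. It was included in 3.65, 9.27, 9.78 and 12.0% in md KO1 to KO4 and in 2.44, 2.90 and 3.00% in WT. PSI in ES cells was 13.03, 12.1 and 12.4% in KO and 2.34, 1.46 and 1.36% in WT. KO1 was the clone nearest to WT. The including transcripts summed to 0.331 to 1.00 TPM in md KO and 0.153 to 0.203 TPM in WT, so these PSI values rest on little RNA. In ES cells they summed to 1.02 to 1.42 TPM in KO and 0.122 to 0.216 TPM in WT. The frame has 1181 codons with the exon and 1170 without it.

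In the next exons keeping the exon changes more than a run of residues. Tomm5 encodes a small subunit of the translocase that imports proteins through the outer mitochondrial membrane. Its exon, chr4:45119711-45119760 on the minus strand (50 nt), shifts the frame, which then ends in the last exon. The frame has 61 codons before the stop with the exon in ENSMUST00000107808 and 51 without it in ENSMUST00000107810. PSI was 28.5, 38.0, 41.8 and 43.8% in md KO1 to KO4 and 25.5, 25.2 and 22.1% in WT. In ES cells it was 27.9, 25.6 and 26.6% in KO and 9.35, 8.504 and 11.9% in WT. The groups did not overlap, with KO1 nearest to md WT.

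The Tomm5 including transcript had 77.7, 67.2 and 62.9 TPM in ES KO and 16.4, 14.4 and 24.1 in WT. The skipping transcript had 201.1, 195.7 and 174.0 TPM in ES KO and 158.9, 154.6 and 179.2 in WT, so the including form was the one that parted. In md cells both forms overlapped, at 55.4, 88.3, 186.3 and 114.2 TPM in KO1 to KO4 and 76.6, 68.3 and 63.9 in WT for the including form. The Tomm5 exon is repetitive sequence. Of its 27 stretches of 24 nt, 25 stand elsewhere in the genome too (92.6%), the commonest at 504 places. No 24 nt stretch of the other 8 exons does. How the authors' quantifier treated reads with several matches is not given in the sources used here, so the Tomm5 values are uncertain.

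Rps6kb1 encodes the ribosomal protein S6 kinase S6K1, a kinase downstream of mTORC1. Alternative exons in this gene are known to give shortened S6K1 proteins. The exon was included in 69.4, 73.3, 68.3 and 70.7% in md KO and in 63.5, 65.2 and 64.4% in WT. In ES cells it was included in 48.1, 57.8 and 55.1% in KO and in 27.2, 34.0 and 28.1% in WT. The md groups were separate but close. The including transcript, ENSMUST00000020824, is annotated as a retained intron transcript. Read from the start codon of the skipping form, its frame ends within the exon after 219 codons, against 525 codons in the skipping ENSMUST00000154617.

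The including Rps6kb1 transcript had 5.06, 7.33 and 6.98 TPM in ES KO and 2.37, 3.21 and 2.31 in WT. The skipping transcript had 5.45, 5.35 and 5.70 TPM in ES KO and 6.36, 6.23 and 5.92 in WT. In md cells the including transcript overlapped, at 15.3, 17.2, 13.2 and 12.7 TPM in KO beside 13.1, 14.1 and 13.6 in WT. The md skipping transcript was lower, at 6.71, 6.29, 6.13 and 5.24 TPM in KO beside 7.53, 7.50 and 7.55 in WT. The 2 transcripts held 37.1 to 43.9% of Rps6kb1 TPM as group means. When every transcript that spans the exon entered the PSI, the md difference was 2.93 points in place of 6.07.

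Ext2 encodes a glycosyltransferase that lengthens heparan sulfate chains together with EXT1. The exon lies before the annotated start codon of the skipping transcript ENSMUST00000145838, and the including ENSMUST00000125027 has no annotated coding sequence, so no difference in protein can be read from these 2 transcripts. They held 11.3 to 22.1% of Ext2 TPM as group means. PSI was 56.5, 72.1, 77.7 and 75.7% in md KO1 to KO4 and 24.2, 42.8 and 64.2% in WT. The md WT libraries spread widely and overlapped KO. In ES cells PSI was 49.5, 52.0 and 51.4% in KO and 17.6, 11.9 and 19.3% in WT, with no overlap. The including transcript had 1.99, 1.85 and 1.82 TPM in ES KO and 0.633, 0.374 and 0.920 in WT. Without the first md WT library the md difference was 17.0 points in place of 26.7, and with every spanning transcript it was 7.21 points in md cells and 10.3 in ES cells, in place of 26.7 and 34.7.

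Across the 9 genes, the including TPM was higher in KO without overlap in 5 in md cells (Mfge8, Ciz1, Agfg2, Tubd1 and Wdr35) and in 7 in ES cells (all but Mfge8 and Ciz1). The skipping TPM was lower without overlap in 3 in md cells (Ciz1, Rbm26 and Rps6kb1) and in 7 in ES cells (all but Tomm5 and Wdr35). In 5 genes in ES cells, Agfg2, Rbm26, Rps6kb1, Ext2 and Tubd1, both held. For Tomm5 and Ext2 in md cells neither form parted by itself. The summed TPM of the gene overlapped between KO and WT in 9 of 9 genes in md cells and in 5 in ES cells. In ES cells it was higher in KO without overlap for Rbm26, Tomm5 and Tubd1 and lower for Mfge8. The share of all transcripts or genes whose TPM parts in this way was not computed. These counts therefore describe the chosen genes and cannot be read against other genes.

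**Figure D3:**
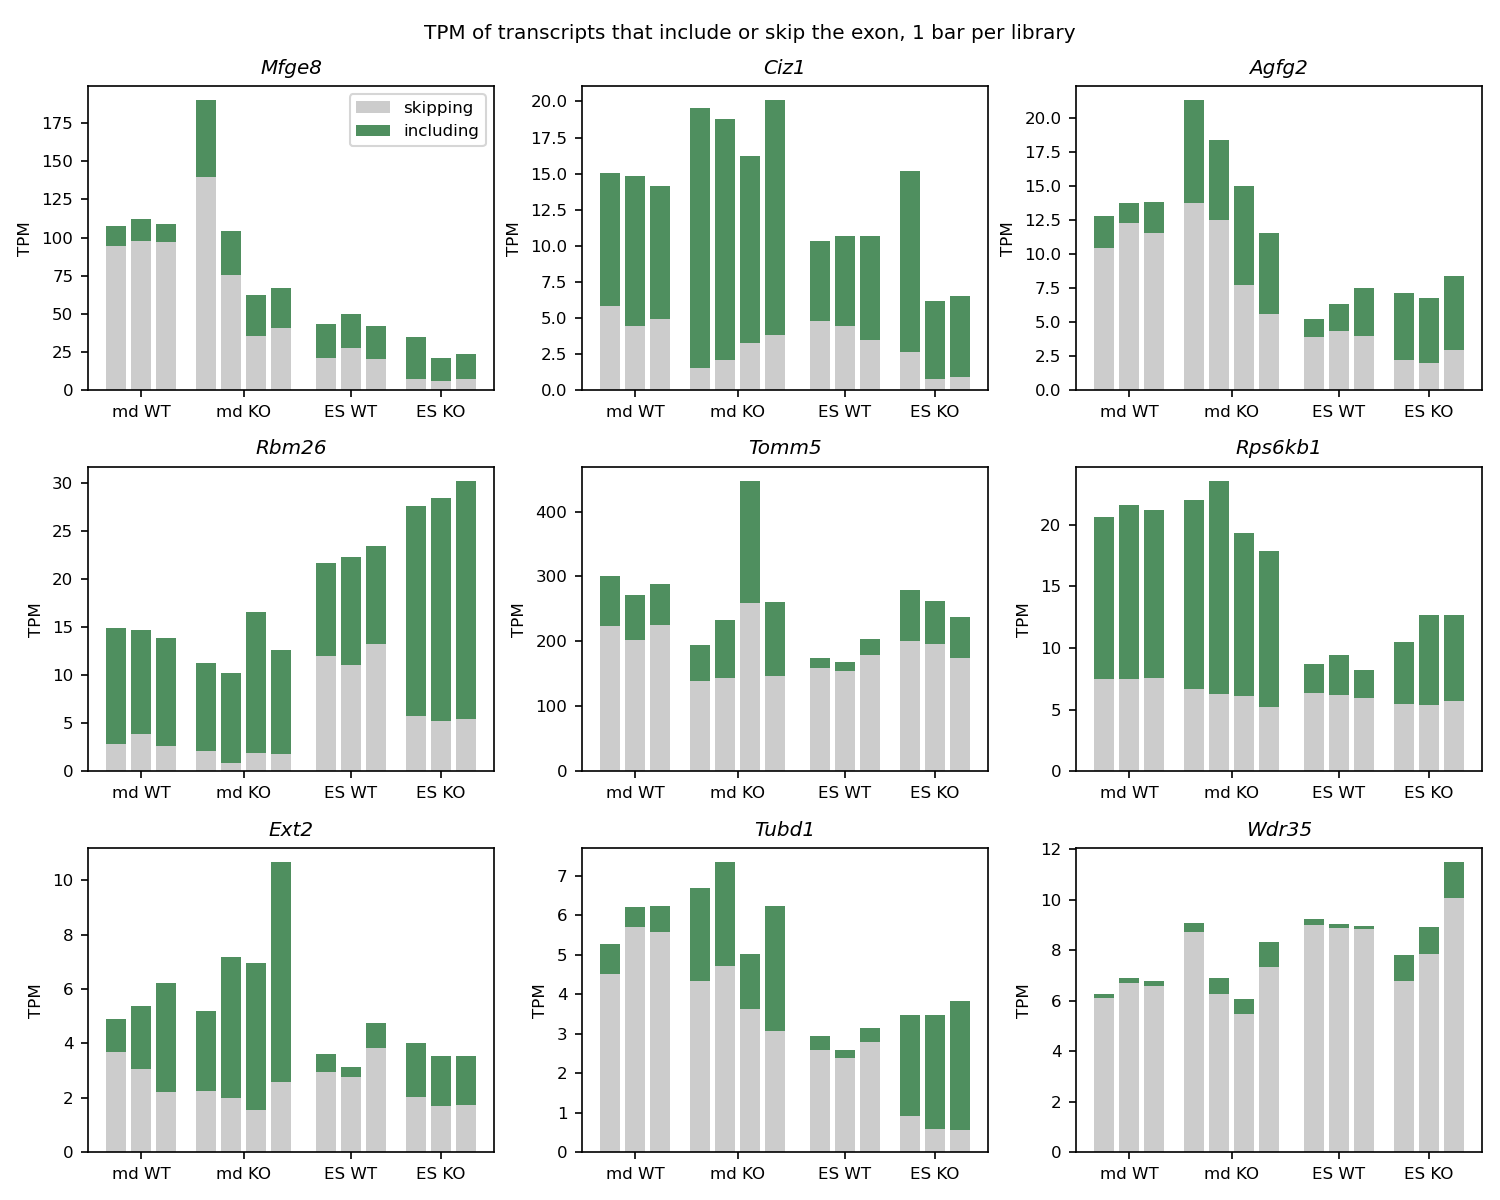
Summed TPM (y axis) of the transcripts that skip (grey) or include (green) each exon, stacked, with 1 bar per library, by group (x axis). In ES cells the Mfge8 bars shrink in KO through the grey part, from 20.4 to 27.5 TPM in WT to 6.15 to 7.21 TPM in KO, while for Tomm5 the green part is the larger in KO.

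The 9 genes held 13 further measured cassette events. None of the 13 was higher in KO without overlap in both cell types, where 1.10% of all events were. None was lower in both, and the share of all events for that is not given here. The event with the largest smaller rise had already been taken from each gene, so the 13 are those left over. Their count does not show that the change is particular to the chosen exons. Of these, 11 are other exons and 2 are the Rps6kb1 and Ext2 exons themselves between other flanking exons. With those flanks the PSI of the Rps6kb1 exon differed by -1.91 points in md and -0.64 points in ES cells, and that of the Ext2 exon by 2.00 and 2.11 points. Outside the 9 genes, the exons most like them were the 5 with the largest smaller rise of the 2 cell types and no overlap in either. They lie in Parp6 (17.4 points in md and 18.4 in ES cells), Ints10 (15.9 and 13.4), Luc7l2 (12.8 and 12.2), Hnrnph2 (11.8 and 21.0) and 5730419I09Rik (15.2 and 11.3). These exceed the md and ES differences of Wdr35, so the 9 genes are not the 9 largest.

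The iCLIP libraries ask whether RBM10 touches the RNA near these exons in md cells. Crosslinks on the gene's strand were counted in the exon with up to 300 nt of intron on each side, and in 5 segments. The segments are the exon, the intron ends on its 2 sides, and the far ends of the same introns beside the upstream and the downstream exon. Ratios are RBM10 over IgG crosslinks per library total, summed over the 4 libraries of each kind, with exact 95% intervals that cover counting error only. The RBM10 libraries were run on 1 lane and the IgG libraries on another, so the effect of the lane cannot be told apart from that of the antibody.

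Crosslinks were dense at Mfge8. Its exon and flanks held 39, 84, 179 and 30 crosslinks in RBM10 libraries 1 to 4 and 1, 3, 0 and 0 in IgG libraries 1 to 4. That is 41.5 ± 14.7 CPM (counts scaled to the library's total crosslinks) in RBM10 and 0.598 ± 0.702 CPM in IgG (SD, n = 4 each), a ratio of 37.7 (95% interval 14.6 to 139). All 4 RBM10 libraries stood above all 4 IgG libraries. The region held 45.4% of the RBM10 crosslinks of the gene in 4.17% of its length, and 1.68% of the IgG crosslinks. In the edgeR quasi-likelihood test over 542 regions it was higher in RBM10 (log2 fold change +3.12, SE 0.745, adjusted p = 0.000509). In that test 31.0% of regions passed an adjusted p under 0.05 and 18.3% did so with more crosslinks in RBM10. With each RBM10 library paired with the IgG library of its number as a block, the change was +3.19 (adjusted p = 0.0137), and 52 regions were called in place of 168.

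Most Mfge8 crosslinks lay after the exon. The intron there has 227 nt and held 243 RBM10 crosslinks and 1 IgG crosslink. The part before the downstream exon had 18, 29, 89 and 18 in RBM10 and 0 in every IgG library. This was at least 23.3-fold higher, taking 3 crosslinks over the IgG group as the floor (edgeR over 559 segments, log2 fold change +7.33, SE 1.97, adjusted p = 0.00351, where 24.7% of segments passed and 15.0% were higher). The filter keeps rows with enough crosslinks in as many libraries as the smaller group has. The Mfge8 region and this segment met it through the RBM10 libraries alone, so their adjusted p-values are a description. With no filter the region had +4.28 (edgeR adjusted p = 7.52e-05) and the segment +7.55 (edgeR adjusted p = 0.00049). With the replicate block the adjusted p of the segment was 0.0289, and 46 segments were called in place of 138. The part next to the exon had 6, 26, 47 and 6 in RBM10 and 0, 1, 0 and 0 in IgG (ratio 38.6, 6.74 to 1541). The intron end before the exon had 9, 20, 30 and 4 in RBM10 and 0, 2, 0 and 0 in IgG (ratio 14.3, 3.80 to 121). The exon had 6, 7, 11 and 2 against 1, 0, 0 and 0, and the far upstream segment 1, 3, 5 and 2 against 0, 3, 0 and 0, with overlap. The segment before the downstream exon did not pass the filter without RBM10 library 1 or 3, and was not tested there. These libraries held 18 and 89 of its 154 crosslinks.

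The Mfge8 intron is printed whole, 5′ to 3′, because it carries these crosslinks. Capitals mark the 38 bases crosslinked in at least 2 of the 4 RBM10 libraries. The most crosslinked position, chr7:86288019, 145 nt after the exon, had 15 RBM10 crosslinks and chr7:86288001 had 11. On the other side of the exon, chr7:86288350, 76 nt before it, had 12 crosslinks in 4 of 4 libraries. IgG had 0 at all of them.
Mfge8 intron after the exon, chr7:86287937-86288163, minus strand: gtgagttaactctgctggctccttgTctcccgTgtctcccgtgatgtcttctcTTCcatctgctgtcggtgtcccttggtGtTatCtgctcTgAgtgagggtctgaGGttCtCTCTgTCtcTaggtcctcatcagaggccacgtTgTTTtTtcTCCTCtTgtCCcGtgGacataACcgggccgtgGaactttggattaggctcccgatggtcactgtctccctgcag

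Rbm26 had its crosslinks before the exon. The whole region had 15, 37, 72 and 22 crosslinks in RBM10 and 3, 6, 0 and 1 in IgG, and the groups did not overlap in CPM (20.04 ± 7.97 against 3.04 ± 2.59, SD, n = 4 each; ratio 6.63, 3.50 to 14.1). The intron end before the exon had 12, 30, 60 and 17 in RBM10 and 1, 5, 0 and 0 in IgG (ratio 9.00, 4.01 to 25.0). The exon itself had 1, 1, 2 and 0 against 1, 1, 0 and 0. Near the downstream exon there were 2, 18, 21 and 12 against 0, 0, 1 and 0 (ratio 24.05, 4.13 to 968). The edgeR test of the region gave +0.71 (SE 0.592, adjusted p = 0.353) and that of the intron end +0.52 (adjusted p = 0.565), so neither passed the threshold. Both had met the filter through the RBM10 libraries alone.

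The Rbm26 region passed the threshold under other scalings and other filters. Without TMM factors the region had a log2 fold change of +2.70 (edgeR adjusted p = 3.37e-05), with DESeq2 +1.33 (adjusted p = 0.0266), and among the 5529 regions with at least 10 crosslinks +1.77 (edgeR adjusted p = 0.0448). With no filter it was +1.90 (edgeR adjusted p = 0.0474). The median log2 fold change over all tested regions was 0.47 with TMM factors and 2.37 without them. The share of called regions that were higher in RBM10 was 58.9% and 98.7%. The Rbm26 region stood 0.25 above that median with the factors and 0.33 above it without them.

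The last 100 nt of the Rbm26 intron before the exon held 69 RBM10 crosslinks and 0 IgG crosslinks. Of these, 19 fell on chr14:105538451, 72 nt before the exon, with crosslinks in 4 of 4 libraries (2, 2, 12 and 3), and 8 on chr14:105538460. The stretch is shown for this position, with the 7 bases crosslinked in at least 2 libraries in capitals.
Rbm26 intron before the exon, chr14:105538380-105538479, minus strand: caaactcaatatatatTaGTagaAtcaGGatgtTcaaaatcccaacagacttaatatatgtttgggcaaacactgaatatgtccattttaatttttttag

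Ciz1 and Agfg2 had fewer crosslinks, also with no overlap between the libraries. The Ciz1 region had 13, 18, 49 and 5 in RBM10 and 1, 8, 0 and 0 in IgG (10.4 ± 5.17 against 1.16 ± 1.71 CPM, SD, n = 4 each; ratio 4.29, 2.15 to 9.69). The intron end before the downstream exon of Ciz1 had 7, 17, 26 and 6 against 0 in every IgG library, at least 8.47-fold higher. The segment after the upstream exon had 5, 5, 12 and 0 against 0, at least 3.33-fold higher over the group. The exon had 1 RBM10 crosslink and 0 IgG crosslinks.

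The Agfg2 region had 6, 14, 17 and 4 in RBM10 and 0, 3, 0 and 0 in IgG (5.36 ± 0.452 against 0.339 ± 0.677 CPM, SD, n = 4 each; ratio 6.20, 1.98 to 31.3). The segment after its upstream exon had 6, 10, 11 and 1 against 0, at least 4.24-fold higher. The segment before its downstream exon had 7, 10, 5 and 8 against 1, 0, 0 and 0 (ratio 13.6, 2.26 to 555). Neither region had enough crosslinks in enough libraries to be among the 542 tested. Among the 5529 regions with at least 10 crosslinks, neither passed the edgeR threshold. Ciz1 had a log2 fold change of +1.14 (adjusted p = 0.241) and Agfg2 +1.67 (adjusted p = 0.207). Over those regions the median ratio was 2.39, with IgG taken as at least 3 crosslinks, and 37.2% had no overlap with RBM10 higher.

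**Figure D4:**
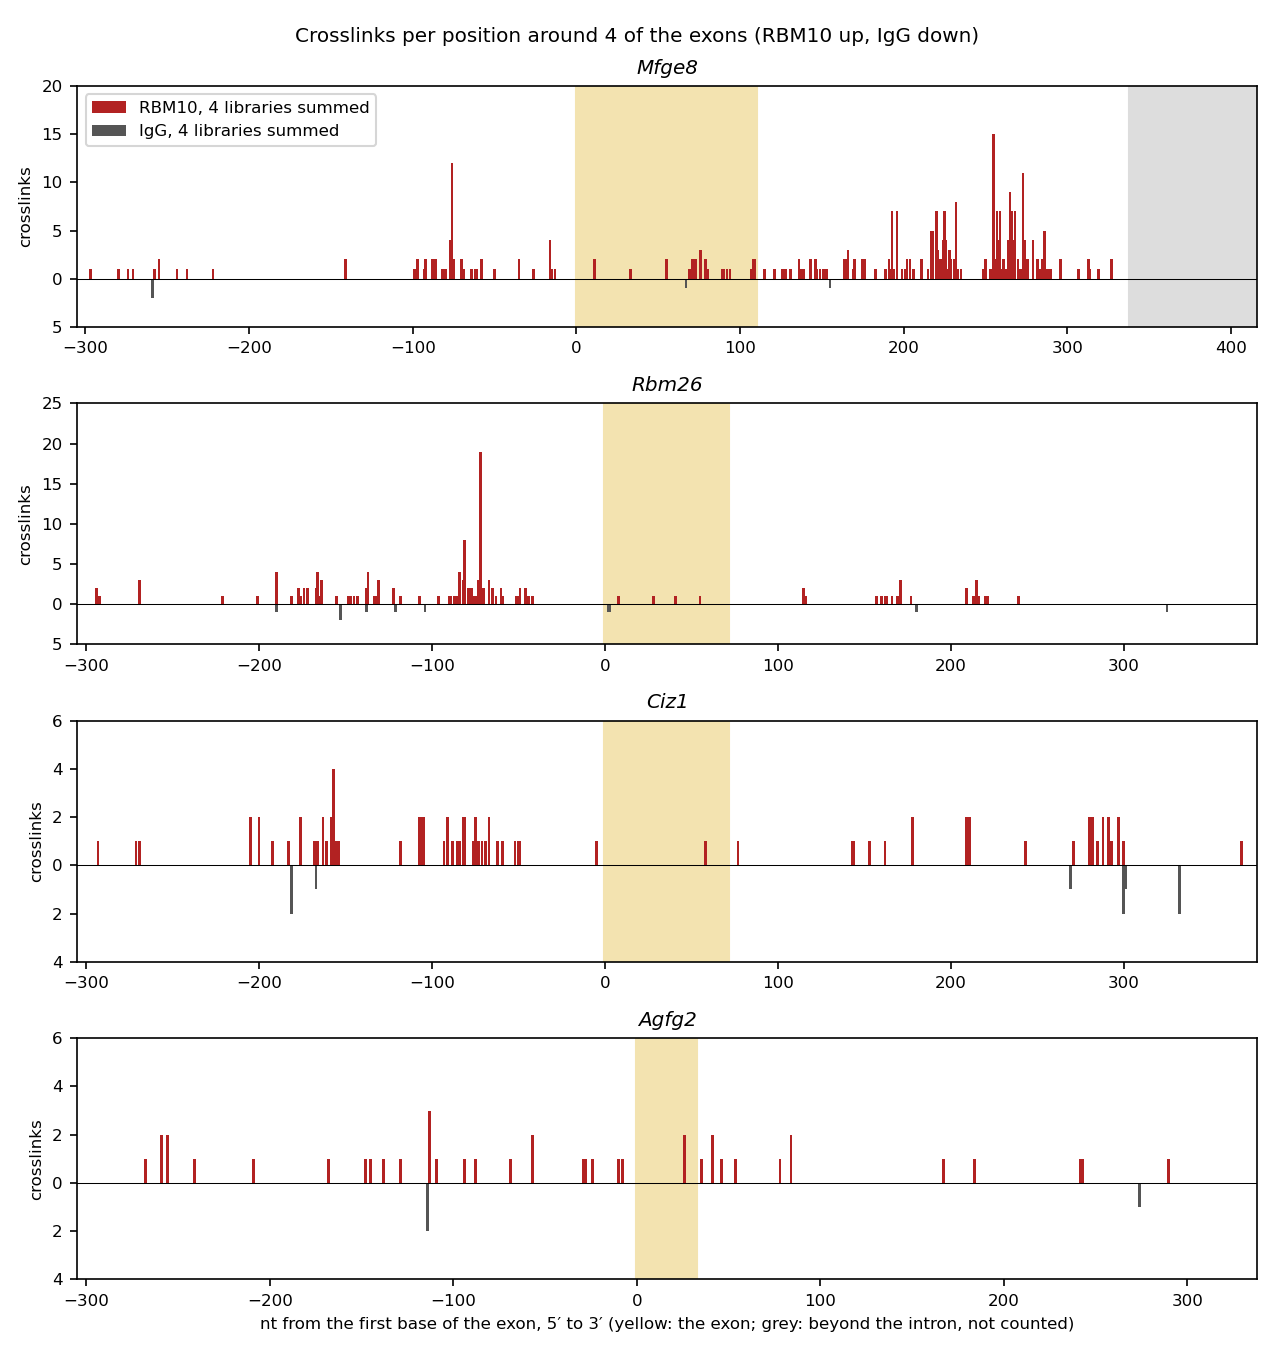
Crosslinks per position (y axis), summed over the 4 RBM10 libraries (red, up) and the 4 IgG libraries (grey, down), by distance in nt from the first base of the exon (x axis), for Mfge8, Rbm26, Ciz1 and Agfg2. The yellow band is the exon. The red bars of Mfge8 crowd into the intron after the exon, and the highest bar of Rbm26, 19 crosslinks, stands 72 nt before it.

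The regions of the other 5 exons held few crosslinks, though a farther segment held more in Rps6kb1 and in Wdr35. The Rps6kb1 region had 0, 8, 5 and 3 RBM10 crosslinks and 4, 7, 0 and 0 IgG crosslinks (ratio 0.660, 0.288 to 1.57). Its exon had 2 in RBM10 and 6 in IgG. The intron end before the next exon of Rps6kb1, most of it beyond that region, had 2, 13, 41 and 11 in RBM10 and 0, 1, 0 and 1 in IgG (ratio 15.2, 4.05 to 128), but the libraries overlapped.

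The Tomm5 region had 3, 5, 6 and 1 in RBM10 and 0, 0, 3 and 0 in IgG (ratio 2.27, 0.642 to 12.2), with no crosslink in the exon in any library. That exon is repetitive, and how iCLIP reads with several matches were treated is not given in the sources used here. Its lack of crosslinks is therefore uncertain. The intron end before the Tomm5 exon had 2, 4, 4 and 1 against 0. The Wdr35 region had 0, 4, 13 and 0 against 0, 2, 0 and 0 (ratio 3.86, 0.916 to 34.4). The segment after the upstream exon of Wdr35 had 1, 4, 19 and 0 against 0, at least 3.63-fold higher over the group, with 19 of the 24 in RBM10 library 3.

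The Ext2 region had 0, 3, 6 and 1 against 0, 2, 0 and 0 (ratio 2.27, 0.484 to 21.3). The Tubd1 region, around the exon with the largest ES difference, had 2, 0, 4 and 0 against 0 in every IgG library. With so few crosslinks a difference from IgG was not detectable. The whole gene body held 20, 37, 82 and 16 RBM10 crosslinks for Tubd1 (ratio to IgG 1.95, 1.35 to 2.89). For Ext2 it held 103, 222, 199 and 42 (ratio 0.886, 0.767 to 1.02), so no more than in IgG. It held 135, 440, 494 and 133 for Rps6kb1 (ratio 1.29, 1.15 to 1.44), and 265, 662, 770 and 201 for Rbm26 (ratio 1.31, 1.20 to 1.43). The Ext2 region held 1.77% of the RBM10 crosslinks of its gene (interval 0.85 to 3.23%) in 0.567% of the gene's length. The Rps6kb1 region held 1.33% (interval 0.763 to 2.15%) in 1.54% of the length. These intervals cover counting error only. The low counts of these regions were thus no clear shortfall against their share of the gene's length.

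**Figure D5:**
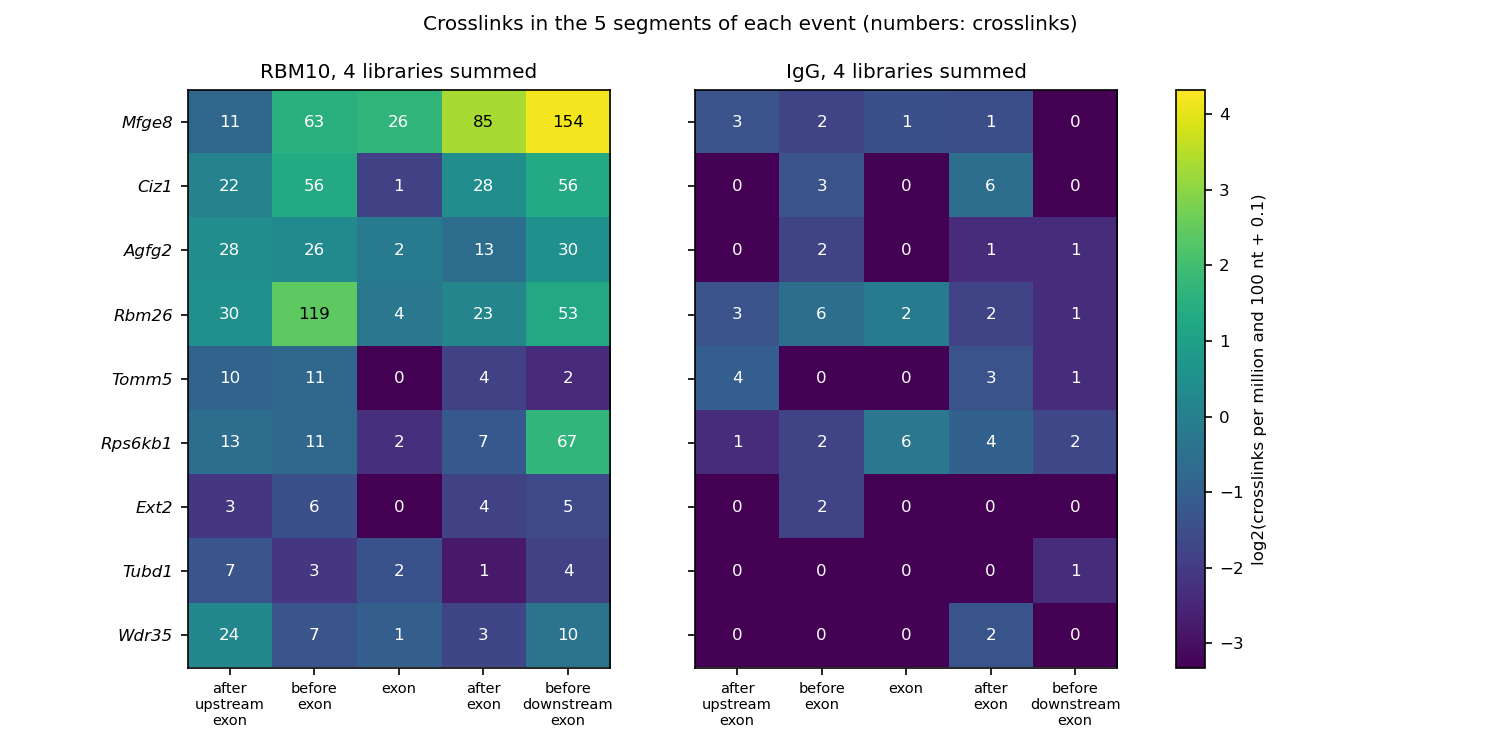
Crosslinks in the 5 segments (x axis) of each event (y axis), summed over 4 RBM10 libraries (left) and 4 IgG libraries (right). The numbers are crosslinks and the colour is log2 of CPM per 100 nt plus 0.1. The 2 brightest cells are the Mfge8 intron segments with 154 and 85 crosslinks, and the cells of Ext2 and Tubd1 stay dark in both panels.

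The crosslinks near the 9 exons were set beside those of all cassette regions as a description, with no test of the difference. Of the 8 member regions with at least 10 crosslinks, RBM10 stood above IgG without overlap in 4, while 37.2% of all 5529 such regions did. Of 25 member segments with at least 10 crosslinks it did so in 13, against 41.3% of 11998. In the edgeR test over these 5529 regions, 2 of the 8, Mfge8 and Rbm26, were higher in RBM10 at an adjusted p under 0.05, where 9.73% of all were. Over the 11998 segments, 11 of the 25 were so, where 21.5% of all were. They were 3 of Mfge8, 2 each of Ciz1, Agfg2 and Rbm26, and 1 each of Rps6kb1 and Wdr35, so segments of the same intron repeat the same gene. The minimum of 10 crosslinks was summed over the RBM10 and IgG libraries together. Called segments such as that of Mfge8 before the downstream exon (154 RBM10 and 0 IgG crosslinks) met it through RBM10 alone. The counts and calls under this minimum are therefore a description. RBM10 crosslinks in the 9 regions fell on T in 38.2% and on C in 37.6% of 668, and IgG crosslinks on T in 59.1% and on C in 13.6% of 44. Mfge8 supplied 332 of the 668 RBM10 crosslinks and 4 of the 44 IgG crosslinks, so the 2 sets differ in the sequence they come from. The share of each base in the regions was not computed.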

How the data were processed

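Members and lists were chosen with earlier results of these data known. The authors deposited transcript TPM in separate tables for md and ES cells, and iCLIP crosslink counts per nucleotide and strand, mapped to mm9 per the design text in the labels. The submitters' processing notes name mm10 as well as mm9. Aligner, quantifier, barcode handling and strandedness: not given in the sources used here. Of 100249 transcripts, 84877 were joined by identifier to GENCODE vM1 (mm9), from which cassette events, coordinates and frames were taken. Of 36 transcripts of the events, 4 are not in the joined tables. Sequences are mm9.

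Named genes are the 9 members, 1 exon each, and the 5 most alike. Crosslinks (column 3 is the 1-based position) were tested with edgeR 4.0.16 (R 4.3.3; glmQLFTest, TMM on library totals, filterByExpr, 2-sided, Benjamini-Hochberg over all regions or segments, threshold 0.05). DESeq2 1.42.0, no TMM, other filters, flanks of 100 and 500 nt, positions counted once and each library left out were alternatives. On simulated counts the test recovered 113 of 200 changed regions with 4 false calls, and 123 of 200 segments with 3. The simulation had equal numbers of rows raised and lowered and a fixed dispersion. The real calls were nearly all higher in RBM10 without TMM factors, so these rates need not hold for the real counts. Each RBM10 replicate had its own IgG control per the design text. The deviations of same-numbered libraries correlated at 0.023, 0.095, 0.065 and -0.0057 over 542 regions. Scripts ran in Python 3.11.15 with pysam 0.24.0, scipy 1.17.1, pandas 2.3.3, numpy 2.4.6 and matplotlib 3.10.9.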

Additional observations from a re-analysis of the deposited data

Results flagged for a closer look

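Groups of 4 libraries were screened for a library whose gap to the nearest other, as a share of the group's range, was above Dixon's 95% critical value, in 55 groups; chance marks about 1 in 20. In md KO, Mfge8 including TPM was 50.0 in KO1 and 26.2 to 28.7 in the other clones. Tomm5 skipping TPM was 259.8 in KO3 and 139.3 to 146.3 in the others, and the summed Ext2 TPM was 37.8 in KO3 and 56.8 to 58.7 in the others. PSI of these exons had no such library. In the IgG libraries, the Tomm5 region had 29.1 CPM in library 3, from 3 crosslinks, and 0 in the others. The Agfg2 region had 1.35 CPM in library 2, and the Ext2 and Wdr35 regions 0.903 CPM each in library 2, with 0 in the others.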

How the results depend on the processing

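PSI differences were recomputed for the 9 exons in each cell type. All stayed positive with each library left out, and with the exon 3 or the exon 9 clones alone. With the exon 3 clones alone Tomm5 came to 8.97 points and Wdr35 to 3.68, in place of 13.8 and 5.90. With all spanning transcripts, Rps6kb1 in md cells came to 2.93 points, and Ext2 to 7.21 in md cells, where the WT SD is 20.03, and to 10.3 in ES cells. The other exons moved by less than 1 SD. With transcripts under 0.5 TPM left out, Wdr35 in md cells came to 0, because its including transcripts were removed, and the other 17 of 18 moved by less than 1 SD. Of the iCLIP tests, 168 of 542 regions and 138 of 559 segments were called. Without TMM factors 456 regions and 507 segments were called, with DESeq2 306 and 467, with no filter 582 and 1792, with at least 10 crosslinks 624 and 2736, and with the replicate block 52 and 46. Flanks of 100 nt gave 96 regions and flanks of 500 nt 228 segments. Leaving out 1 library gave 88 to 220 regions, the lowest without IgG library 2. It gave 59 to 430 segments: 59 without RBM10 library 1, 405 without 2, 302 without 3 and 430 without 4, and 300 and 88 without IgG library 1 and 2. The Mfge8 region was called in all 16 alternatives (log2 fold change 2.51 to 5.09) and its segment before the downstream exon in the 12 that could test it (4.82 to 7.80). The Rbm26 region and its segment before the exon passed the threshold in 4 alternatives each, not in the other 11 and 10. The cause was not tested. The replicate block changed no call of a member. Whether copies of a molecule were collapsed before deposit is not stated, and several exons have too few crosslinks for any test.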
